A study of Mus musculus with 12 samples.

Results

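The RNA levels of 9 cytokine genes, Ifng, Il10, Il2, Il3, Il5, Il13, Il17a, Il17f and Csf2, were followed across 4 populations of CD4 T cells from lupus-prone mice. The genes were chosen by name, as the cytokines by which effector CD4 T cells are classed, other than those of B cell help. The array carried 1 probe set named for each of 8 of them, so 8 of 45101 probe sets (18193 named genes) were members. Il17f had no named probe set here and has no value, and a further probe set that the annotation gives to both Ntan1 and Il2 was left out.

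All cells were sorted from the spleens of female MRL/Faslpr mice, a strain that develops a lupus-like disease and carries a mutant allele of Fas, the death receptor that removes activated lymphocytes. That allele was shared by every group, so no group is a Fas-sufficient control. Each population was measured on 3 arrays, 12 in all, after a TCRb+ CD4+ B220- gate. Naive cells (CD62Lhi CD44lo) came from animals of 6 to 8 weeks. The CD62Lhi PSGL1hi, CD62Llo PSGL1hi and CD62Llo PSGL1lo populations were CD44+ and came from animals of 16 to 24 weeks. CD62L is the lymph node homing receptor L-selectin, CD44 marks cells that have met antigen, and PSGL1 is a selectin ligand. Age and population cannot be told apart in any comparison with naive cells. By their titles the 3 arrays per population are technical replicates, while the design text speaks of separate sorts; the p-values therefore reflect the spread among these arrays alone, which may be technical. A description field gives the CD62Llo PSGL1hi samples another gate, CD62Lhi PSGL1lo; the titles and design text were followed.

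CD4 T cells are classed by the cytokines they make on restimulation. Ifng is the signature of T helper 1 cells, Il5 and Il13 belong with Il4 to T helper 2 cells, and Il17a and Il17f belong to T helper 17 cells. Il2 and Il3 are growth factors made soon after activation, Csf2 (GM-CSF) acts on myeloid cells, and Il10 is an inhibitory cytokine made by several effector and regulatory subsets. In MRL/Faslpr mice Ifng contributes to kidney disease. These cells were taken directly from the animal and were not restimulated, so the values are resting RNA levels and not secreted protein.

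Many cytokine promoters hold sites for NFAT, the calcium-dependent factor that links the T cell receptor to transcription. RefSeq (GRCm38.p6) gave a window from 250 bases before to 50 bases after the start for 8 of the 9 genes; Il10 was not among them. The windows below show 1 gene that varied widely (Ifng), 1 that varied little but was called (Il2) and 1 that stayed flat (Il13). Capitals mark GGAAA, the NFAT core, on either strand (TTTCC on the strand shown) and TATAAA, the TATA box; overlapping matches on both strands run together.
Ifng, chr10:118440796-118441095, plus strand: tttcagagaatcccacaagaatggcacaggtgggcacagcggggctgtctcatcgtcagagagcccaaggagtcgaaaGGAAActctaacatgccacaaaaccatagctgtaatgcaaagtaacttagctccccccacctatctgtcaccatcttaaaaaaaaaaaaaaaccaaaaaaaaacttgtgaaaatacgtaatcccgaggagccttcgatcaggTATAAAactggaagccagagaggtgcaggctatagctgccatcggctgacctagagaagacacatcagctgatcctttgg
Il2, chr3:37125905-37126204, minus strand: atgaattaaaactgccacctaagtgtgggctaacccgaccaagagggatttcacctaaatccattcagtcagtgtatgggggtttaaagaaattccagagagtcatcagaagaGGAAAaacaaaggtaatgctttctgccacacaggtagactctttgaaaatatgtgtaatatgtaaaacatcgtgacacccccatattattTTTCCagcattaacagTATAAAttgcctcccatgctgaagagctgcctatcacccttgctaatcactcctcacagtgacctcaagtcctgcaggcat
Il13, chr11:53634653-53634952, minus strand: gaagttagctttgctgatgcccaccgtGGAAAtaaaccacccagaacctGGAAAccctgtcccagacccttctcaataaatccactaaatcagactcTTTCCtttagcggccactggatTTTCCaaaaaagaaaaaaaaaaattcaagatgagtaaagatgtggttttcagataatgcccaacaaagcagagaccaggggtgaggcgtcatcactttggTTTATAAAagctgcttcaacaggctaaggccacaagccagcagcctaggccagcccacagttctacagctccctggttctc
The Ifng window held 1 GGAAA and 1 TATAAA, the Il2 window 2 GGAAA and 1 TATAAA, and the Il13 window 4 GGAAA and, counting both strands, 2 TATAAA. Across all 32851 windows of this length, 61.3% held GGAAA and 13.6% held TATAAA. The AP-1 site TGANTCA (7.81% of all windows) and the T-box site GGTGTGA (3.98%), searched on both strands, had no match in these 3 windows. GGAAA was present in the flat Il13 window and in the variable Ifng window. Of the flat members not shown, Il17a had 0 GGAAA, Il3 1, Il5 2 and Csf2 3. A match describes letters only, and the part of these sites in the RNA levels was not tested.

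Each deposited value is a ratio of an array's signal to the median of that probe set over the 12 arrays, so 1 is a gene's own midpoint. Ratios compare arrays for 1 gene, and levels of different genes cannot be ranked. No detection calls were used here, so a flat ratio can belong to a gene at background. Populations were compared on the log2 scale with limma over 45037 probe sets, and a call means a Benjamini-Hochberg adjusted p under 0.05. In gene lists, a gene counts as risen or fallen if any of its probe sets was called.

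Ifng, the gene of the macrophage-activating cytokine interferon gamma, was the most variable member. Its ratios in naive cells were 0.0144, 0.0123 and 0.0128. They were 2.21, 1.90 and 1.27 in CD62Lhi PSGL1hi cells and 2.82, 2.48 and 2.12 in CD62Llo PSGL1hi cells. In CD62Llo PSGL1lo cells they were 0.730, 0.528 and 0.730. The naive arrays were the lowest and the PSGL1lo arrays stood apart from both PSGL1hi populations, which overlapped each other.

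The group means of Ifng were 0.0132 ± 0.0011 in naive, 1.79 ± 0.478 in CD62Lhi PSGL1hi, 2.47 ± 0.346 in CD62Llo PSGL1hi and 0.663 ± 0.117 in PSGL1lo cells (SD, n = 3 each). Against naive cells Ifng was 133-fold higher in CD62Lhi PSGL1hi, 187-fold higher in CD62Llo PSGL1hi and 49.9-fold higher in PSGL1lo cells (log2 differences of 7.06, 7.55 and 5.64, each ± 0.19 SE; limma, adjusted p = 2.26e-11, 1.13e-11 and 1.09e-10). These folds depend on the scaling, and after quantile normalization the 3 differences were 4.96, 5.92 and 3.41. All 3 stayed called.

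Il10, the gene of the inhibitory cytokine interleukin 10, separated the CD44+ cells by PSGL1. Its ratios in naive cells were 0.121, 0.0993 and 0.0899, and in CD62Llo PSGL1lo cells 0.200, 0.215 and 0.207. They were 2.34, 2.39 and 1.79 in CD62Lhi PSGL1hi cells and 2.12, 2.24 and 2.03 in CD62Llo PSGL1hi cells. The 6 PSGL1hi arrays lay far above the 6 others, and the PSGL1lo arrays lay just above the naive ones without overlap.

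Group means of Il10 were 0.103 ± 0.016 in naive, 0.207 ± 0.00751 in PSGL1lo, 2.13 ± 0.104 in CD62Llo PSGL1hi and 2.17 ± 0.334 in CD62Lhi PSGL1hi cells (SD, n = 3 each). Against naive cells it was 21.0-fold higher in CD62Lhi PSGL1hi and 20.7-fold higher in CD62Llo PSGL1hi cells (log2 differences 4.39 and 4.37, each ± 0.13 SE; limma, adjusted p = 5.38e-11 and 4.97e-11). After quantile normalization these differences were 2.96 and 3.23. The PSGL1lo cells were 2.02-fold above naive cells (log2 1.01 ± 0.13 SE, limma adjusted p = 4.30e-05). That small difference did not survive another scaling: after quantile normalization it was -0.33 with a limma adjusted p of 0.222.

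Il2, the gene of the T cell growth factor interleukin 2, varied far less and in another order. Its ratios were 0.750, 0.724 and 1.05 in naive cells and 0.894, 0.813 and 0.949 in CD62Lhi PSGL1hi cells. They were 0.919, 1.24 and 1.36 in CD62Llo PSGL1hi cells and 1.55, 1.38 and 1.38 in PSGL1lo cells. The 3 PSGL1lo arrays were the highest of the 12, and the other groups overlapped.

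Il2 was 1.73-fold higher in PSGL1lo than in naive cells (log2 0.79 ± 0.16 SE, limma adjusted p = 0.00227) and 1.62-fold higher than in CD62Lhi PSGL1hi cells (log2 0.70 ± 0.16 SE, adjusted p = 0.00927). The second call was lost after quantile normalization (limma adjusted p = 0.0527). Against CD62Llo PSGL1hi cells the difference of 0.31 ± 0.16 SE was not called (limma adjusted p = 0.355), although the 2 groups did not overlap. CD62Llo PSGL1hi against naive cells lay at the threshold: 0.48 ± 0.16 SE with a limma adjusted p of 0.0533, and called in 6 of 12 alternative settings.

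The 5 remaining members were flat. Over the 12 arrays Il3, a growth factor of basophils and mast cells, ranged from 0.922 to 1.12. Il5, the eosinophil growth factor, ranged from 0.870 to 1.23. Il13, which acts on epithelium and macrophages in T helper 2 responses, ranged from 0.852 to 1.15.

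Il17a, which recruits neutrophils, ranged from 0.861 to 1.12, and Csf2 ranged from 0.856 to 1.19. None of the 5 was called in any of the 6 comparisons or in the F test among the 4 populations (limma adjusted p = 0.805 for Il3, 0.816 for Il5, 0.388 for Il13, 0.680 for Il17a and 0.920 for Csf2). The same F test called Ifng (1.70e-11), Il10 (2.46e-11) and Il2 (0.00535), against a background of 23.7% of all probe sets. By the width of its range over the 12 arrays, Ifng stood at percentile 99.99 of all probe sets, Il10 at 99.6 and Il2 at 83.4, and the flat members stood between 3.75 (Il3) and 35.6 (Il5).

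The flat members had narrow intervals. Between PSGL1lo and PSGL1hi cells at low CD62L, the 95% interval of the log2 difference ran from -0.17 to 0.24 for Il3, from -0.30 to 0.25 for Il5 and from -0.20 to 0.22 for Il17a. It ran from -0.34 to 0.17 for Csf2 and from -0.03 to 0.47 for Il13. Without detection calls these intervals bound a change in signal and do not show that the RNA was present. The Il13 arrays of CD62Llo PSGL1hi cells (0.912, 0.896 and 0.898) all lay below those of CD62Lhi PSGL1hi cells (1.09, 1.12 and 0.980), a difference of -0.23 ± 0.12 SE that was not called (limma adjusted p = 0.576).

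**Figure D1:**
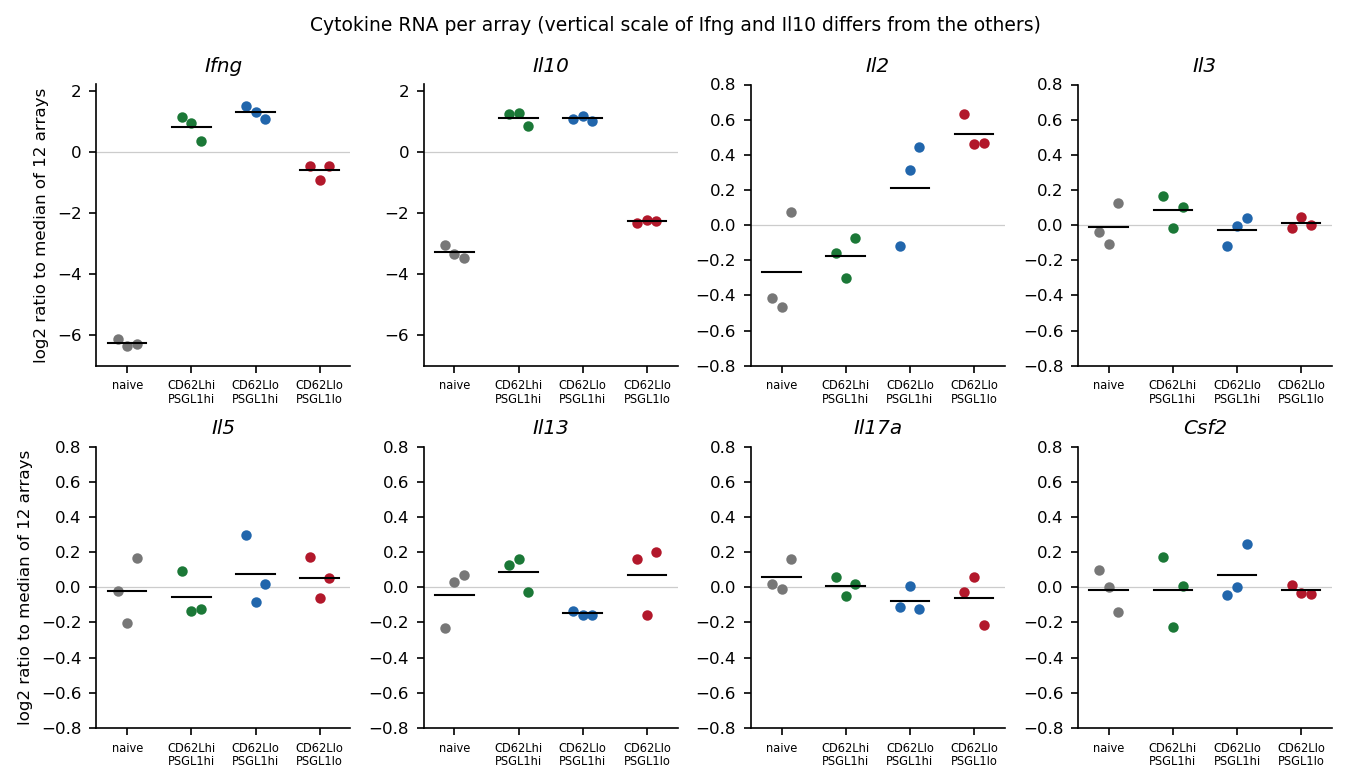
Each point is 1 array, with the log2 of its ratio to the gene's median over the 12 arrays on the vertical axis and the population on the horizontal axis; black lines are the means of 3 arrays. Ifng and Il10, drawn on a wider scale than the rest, are low in naive cells and high in both PSGL1hi populations, Il2 is highest in PSGL1lo cells, and the other 5 genes stay near 0.

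The comparison that isolates PSGL1 at low CD62L set CD62Llo PSGL1lo against CD62Llo PSGL1hi cells. Il10 was 10.3-fold lower in the PSGL1lo cells (log2 -3.36 ± 0.13 SE, limma adjusted p = 1.58e-09) and Ifng was 3.75-fold lower (log2 -1.91 ± 0.19 SE, adjusted p = 1.20e-05). Both stayed called in all 12 alternative settings, Il10 between -3.56 and -3.32 and Ifng between -2.51 and -1.75. Thus 2 of 8 members fell and none rose, where 8.38% of all probe sets were called (3.41% higher and 4.97% lower). The median log2 difference was -0.0059 over the 8 members and 0.0025 over all probe sets.

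Set against the CD62Lhi PSGL1hi cells, the PSGL1lo cells had 10.4-fold lower Il10 (log2 -3.38 ± 0.13 SE, limma adjusted p = 1.51e-09) and 2.67-fold lower Ifng (log2 -1.41 ± 0.19 SE, adjusted p = 0.000125). With the higher Il2, 3 of 8 members were called, 1 higher and 2 lower, beside 11.6% of all probe sets (5.37% higher and 6.27% lower). This comparison shares its PSGL1lo arrays with the previous one.

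CD62L at high PSGL1 moved no member past the threshold. Il10 differed by -0.02 ± 0.13 SE between CD62Llo PSGL1hi and CD62Lhi PSGL1hi cells (95% interval from -0.30 to 0.26, limma adjusted p = 0.986). Ifng differed by 0.49 ± 0.19 SE (interval from 0.09 to 0.90, adjusted p = 0.379) and Il2 by 0.39 ± 0.16 SE (interval from 0.05 to 0.73, adjusted p = 0.433). Of all probe sets 1.23% were called here (0.395% higher and 0.839% lower), 556 in number, and 1089 with the replicate number as a block, which called no member. Quantile normalization alone of the 12 alternatives called Ifng (0.96, limma adjusted p = 0.0486).

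In the comparisons with naive cells, 3 of 8 members were called higher in PSGL1lo cells, beside 20.1% of all probe sets (9.53% higher and 10.6% lower). In CD62Llo PSGL1hi cells 2 of 8 were called higher, beside 17.3% of all probe sets (9.1% higher and 8.16% lower), and in CD62Lhi PSGL1hi cells 2 of 8, beside 17.3% (8.6% higher and 8.66% lower). No member was called lower than in naive cells. The 3 comparisons share the naive arrays. The neutrophil genes S100a8 and S100a9 were also high in those naive arrays, with log2 ratios of 3.71 and 3.74. They belong to a list of 17 macrophage, monocyte and neutrophil genes with a probe set, which was split. In PSGL1lo cells 5 of the 17 were lower than in naive cells, and Cd68, Cebpb and Mpo were higher. By probe set 6 of 25 were lower and 3 higher. Cd68 and Cebpb were also higher in both PSGL1hi populations, where 5 genes (CD62Llo) and 3 genes (CD62Lhi) were lower. The part of this list in the member differences was not tested.

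**Figure D2:**
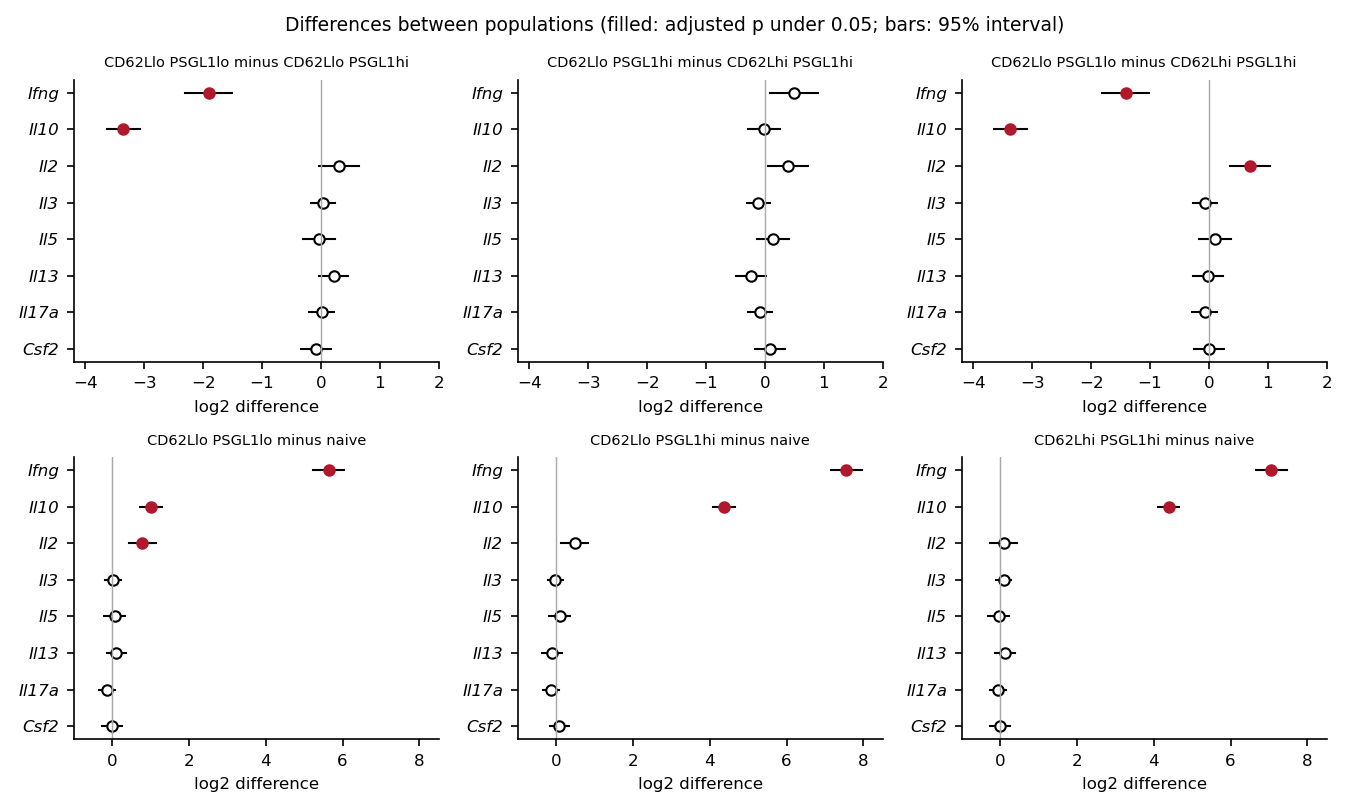
Each panel is 1 comparison of 2 populations and each point is the log2 difference of 1 gene in the limma fit, with bars for the 95% interval; filled points have an adjusted p under 0.05. Ifng and Il10 are called in 5 of the 6 panels, Il2 in 2, and the others in none; the upper and lower rows have different horizontal scales.

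Ifng and Il10 thus shared a direction but not a proportion. Subtracting the log2 ratio of Il10 from that of Ifng on each array gave -3.07, -3.01 and -2.81 in naive cells. It gave -0.08, -0.33 and -0.49 in CD62Lhi PSGL1hi cells, 0.41, 0.15 and 0.07 in CD62Llo PSGL1hi cells, and 1.87, 1.30 and 1.82 in PSGL1lo cells. No 2 populations overlapped on this measure, and the PSGL1lo cells were the farthest toward Ifng. For each of the 6 pairs the two-sided exact permutation p was 0.1 (0.1 after Benjamini-Hochberg adjustment), the smallest that 3 arrays against 3 can give. Because each ratio is relative to that gene's own median, the difference has no absolute zero.

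**Figure D3:**
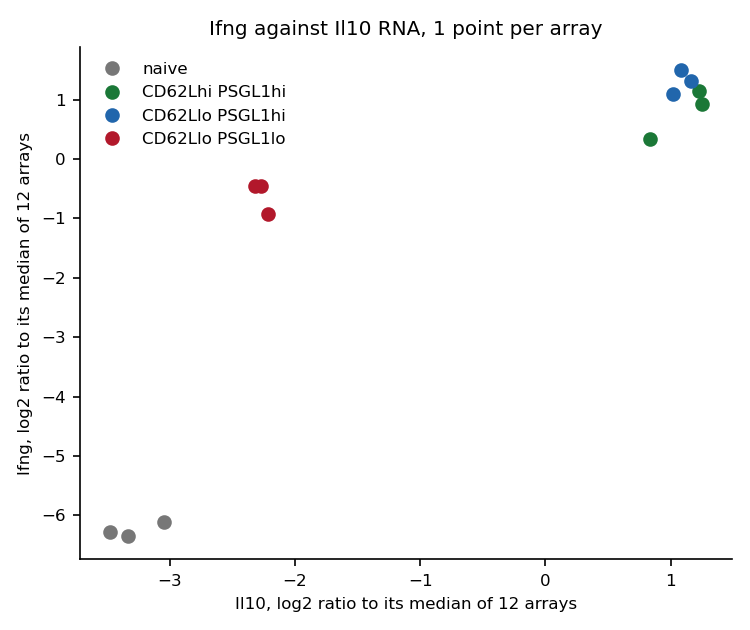
Each point is 1 array, with the log2 ratio of Il10 on the horizontal axis and of Ifng on the vertical axis, coloured by population. The PSGL1lo arrays sit between -0.92 and -0.45 for Ifng but between -2.32 and -2.22 for Il10, away from both the naive arrays at the lower left and the PSGL1hi arrays at the upper right.

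As a description over arrays that share these 4 populations, the log2 ratios of Ifng and Il10 had a Pearson r of 0.853 over 12 arrays and 0.936 over the 9 CD44+ arrays. The 6 genes with the pattern most like Ifng over the 12 arrays were Cst7 (r = 0.997), Cxcr3, Cysltr2, Atxn1, Kif5c and Cobll1 (r = 0.994). Cxcr3, a chemokine receptor of T helper 1 cells, differed by -1.70 ± 0.12 SE between PSGL1lo and CD62Llo PSGL1hi cells, and Cst7, a protease inhibitor of cytotoxic granules, by -1.07 ± 0.11 SE. Both were picked for their likeness to Ifng on these arrays, so the direction follows from the choice and no test is given.

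The 6 genes most like Il10 were Nkg7 (r = 0.996), Prdm1, Fryl, Gzmk, Itgae and Rhoq (r = 0.993). Gzmk, which encodes a granzyme, differed by -4.71 ± 0.13 SE in the same comparison, Nkg7, a cytotoxic granule protein, by -4.50 ± 0.11 SE, and Itgae, the integrin CD103, by -4.07 ± 0.18 SE. The 6 genes were picked from 9219 candidates by this likeness, so their direction follows from the choice here too. Killer cell genes behaved in the same direction: of 10 NK and CD8 T cell markers with a probe set, Klrd1, Klrc1, Klrg1, Cd7 and Klre1 fell and none rose, and Klre1 did not stay called in every setting. By probe set 5 of 15 were lower, beside 4.97% of all probe sets in this comparison. Cd8a differed by -0.20 (limma adjusted p = 0.379) and the NK receptor Ncr1 by -0.01 (adjusted p = 0.978). The summed ratio of that list's 15 probe sets ran from 11.5 to 12 in PSGL1lo, from 19.6 to 37.2 in CD62Llo PSGL1hi, from 15.8 to 22.8 in CD62Lhi PSGL1hi and from 17.6 to 18.6 in naive arrays. Of 7 innate lymphoid cell markers with a probe set, Klrg1, Id2 and Rora fell and Il17rb rose, with 10 of 18 probe sets lower, 1 higher and a median of -1.02; Klrg1 stands in both lists, and Id2 and Rora are factors that T cells also use. Their summed ratio ran from 15.6 to 17.2 in PSGL1lo, from 25.7 to 27.9 in CD62Llo PSGL1hi, from 21.2 to 23.0 in CD62Lhi PSGL1hi and from 11.5 to 12.3 in naive arrays. Of 7 plasma cell markers only Prdm1 fell and none rose (1 of 14 probe sets). Against CD62Lhi PSGL1hi cells Prdm1 and Sdc1 fell, while Irf4 and Xbp1 rose. Their summed ratio ran from 12.4 to 15.5 in PSGL1lo and from 16.3 to 17.2 in CD62Llo PSGL1hi arrays. It ran from 21.6 to 25.7 in CD62Lhi PSGL1hi and from 9.54 to 9.94 in naive arrays. Of 13 B cell markers Cd79b and Ms4a1 fell and H2-Ab1 rose in PSGL1lo against CD62Llo PSGL1hi cells. By probe set 2 of 28 were lower and 1 higher, beside 4.97% and 3.41% of all probe sets. Against CD62Lhi PSGL1hi cells 5 of the 28 were higher and 3 lower, beside 5.37% and 6.27%. Against naive cells 9 were higher and 5 lower in PSGL1lo cells, beside 9.53% and 10.6%, and 3 higher and 2 lower in each PSGL1hi population. The part of these lists in the fall of Ifng and Il10 was not tested. In sorted bulk samples, fewer cells making a cytokine and less RNA per cell cannot be told apart.

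The labelled cell type was checked through 11 CD4 T cell markers with a probe set. Between PSGL1lo and CD62Llo PSGL1hi cells only Zap70, a kinase of the T cell receptor, was called, and no probe set of the list moved by more than 0.59 on the log2 scale. Against naive cells 5 of the 11 rose in PSGL1lo, 8 in CD62Llo PSGL1hi and 2 in CD62Lhi PSGL1hi cells, and none fell. By probe set 8, 10 and 4 of 18 were higher, beside 9.53%, 9.1% and 8.6% of all probe sets. Ratios cannot show whether a marker was present or absent.

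Cytokines act through receptors on the same or other cells, and the receptor side was followed through a list of 29 genes with a probe set. For genes with several probe sets, the one with the smallest F test p is given. In PSGL1lo against CD62Llo PSGL1hi cells 3 of the 29 genes rose and 9 fell, with a median of -0.12 over the list's 59 probe sets, beside 0.0025 over all probe sets. By probe set 6 of the 59 were higher and 14 lower, beside 3.41% and 4.97% of all probe sets. Il10ra, the ligand-binding chain of the Il10 receptor, was 4.68-fold lower (log2 -2.23 ± 0.13 SE, limma adjusted p = 1.01e-07; 2 of 3 probe sets lower), so it was low in the cells with low Il10. Il2ra, the high-affinity chain of the Il2 receptor (CD25), was 9.11-fold lower (log2 -3.19 ± 0.12 SE, limma adjusted p = 1.57e-09), in both probe sets. Il2 was highest in these PSGL1lo cells, but its difference in this comparison was not called.

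Cish, a feedback inhibitor induced by Il2 signalling through STAT5, was 5.23-fold lower (log2 -2.39 ± 0.13 SE, limma adjusted p = 2.93e-08). Il2rb, the chain shared by the Il2 and Il15 receptors, differed by -0.43 ± 0.14 SE (adjusted p = 0.0734, and 0.0411 with the replicate number as a block). Il4ra, the receptor chain of Il4 and Il13, was 2.29-fold lower (log2 -1.19 ± 0.13 SE, limma adjusted p = 3.72e-05; 2 of 3 probe sets lower). It was highest in naive cells, where its mean ratio was 2.51, against 0.386 in PSGL1lo cells. The Ifng receptor gene Ifngr1 was among the 9 that fell. At high PSGL1, Cish alone of the 29 genes was called, higher at low CD62L (0.66, limma adjusted p = 0.0161), and it lost that call in 4 of 12 alternative settings. Cish is 1 of the list's 59 probe sets, beside 1.23% called of all probe sets.

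Transcription factors of the cytokine genes were followed next. Of 28 such genes 4 rose (Bcl6, Cebpa, Nfil3 and Zeb2) and 9 fell in PSGL1lo against CD62Llo PSGL1hi cells, with a median of 0.0044 over 75 probe sets. By probe set 5 were higher and 17 lower, beside 3.41% and 4.97% of all probe sets. Tbx21, which encodes T-bet, an activator of Ifng, was 4.32-fold lower (log2 -2.11 ± 0.14 SE, limma adjusted p = 3.49e-07). Eomes, the related T-box factor of cytotoxic cells, was 18.7-fold lower (log2 -4.22 ± 0.11 SE, adjusted p = 5.42e-11; both probe sets lower). Prdm1, the gene of Blimp-1, was 6.25-fold lower (log2 -2.64 ± 0.14 SE, adjusted p = 3.42e-08) and was among the genes most like Il10.

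The other factors that fell were Rora, Ahr, Foxp3, Id2, Ikzf2 and Runx3. Id2 was lower in all 3 probe sets, and Ahr and Runx3 each in 1 of 2. Foxp3, the defining factor of regulatory T cells, was 13.4-fold lower in the PSGL1lo cells (log2 -3.74 ± 0.17 SE, limma adjusted p = 9.20e-09). Ikzf2, the gene of Helios, another regulatory T cell factor, was lower in 1 of 3 probe sets, and its probe set with the smallest F test p differed by -0.04 (limma adjusted p = 0.916). Foxp3 fell beside Il10, Il2ra and Itgae, and its part in the fall of Il10 was not tested. Bcl6, the follicular helper T cell factor, was 3.87-fold higher (log2 1.95 ± 0.14 SE, limma adjusted p = 6.39e-07; both probe sets higher). Zeb2 was higher in 1 of 5 probe sets, and that call (log2 0.79 ± 0.16 SE, limma adjusted p = 0.00462) was lost after quantile normalization (adjusted p = 0.325).

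Tbx21 was still 5.62-fold above naive cells in the PSGL1lo cells (log2 2.49 ± 0.14 SE, limma adjusted p = 1.19e-08), but the difference was 0.73 after quantile normalization. Eomes was below naive cells (log2 -0.82 ± 0.11 SE, limma adjusted p = 5.72e-05; both probe sets), by -1.51 after quantile normalization. The Ifng level lay between the naive and PSGL1hi levels in the same cells. Maf, which can activate Il10 and Il4, was 98.8-fold above naive cells in the PSGL1lo cells (log2 6.63 ± 0.17 SE, limma adjusted p = 1.89e-11; 5 of 6 probe sets higher), or by 4.32 on the log2 scale after quantile normalization. It differed by 0.41 ± 0.17 SE from the CD62Llo PSGL1hi cells (limma adjusted p = 0.192). Against CD62Lhi PSGL1hi cells Maf was higher in 2 of 6 probe sets (0.67 ± 0.17 SE, limma adjusted p = 0.015), a call lost in 4 of 11 alternative settings. The part of Maf in the Il10 levels was not tested. Bhlhe40, a factor that represses Il10 and favours Csf2 and Ifng, differed by 0.24 ± 0.19 SE between PSGL1lo and CD62Llo PSGL1hi cells (limma adjusted p = 0.621). It was 51.1-fold above naive cells in the PSGL1lo cells (log2 5.68 ± 0.19 SE, and 3.32 after quantile normalization). It was higher in PSGL1lo than in CD62Lhi PSGL1hi cells (0.92 ± 0.19 SE, limma adjusted p = 0.00426).

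Gata3, the T helper 2 factor, differed by 0.28 ± 0.13 SE between PSGL1lo and CD62Llo PSGL1hi cells (limma adjusted p = 0.296), beside flat Il5 and Il13. It was higher than in CD62Lhi PSGL1hi cells both in PSGL1lo cells (0.95 ± 0.13 SE, limma adjusted p = 0.000171) and in CD62Llo PSGL1hi cells (0.68 ± 0.13 SE, adjusted p = 0.0184), the latter a call lost in 4 of 12 alternative settings. Rora, a T helper 17 factor, fell by 1.08 ± 0.11 SE (adjusted p = 1.07e-05; 6 of 9 probe sets lower) beside a flat Il17a. Irf4, a factor induced by the T cell receptor, differed by 0.24 ± 0.10 SE (adjusted p = 0.209) and was higher in PSGL1lo than in CD62Lhi PSGL1hi cells (0.47 ± 0.10 SE, adjusted p = 0.00624), a call lost in 1 of 12 alternative settings.

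**Figure D4:**
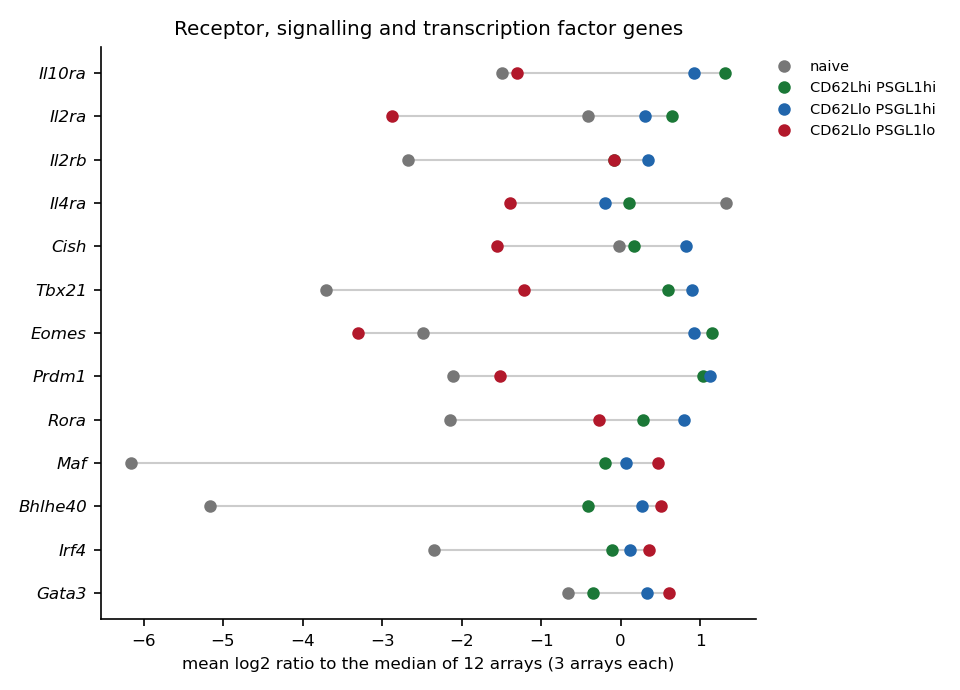
Each point is the mean log2 ratio of 3 arrays for 1 population, with 1 gene per line and a grey line spanning its range. Il10ra, Il2ra, Cish, Tbx21, Eomes and Prdm1 are lower in PSGL1lo than in both PSGL1hi populations, while Maf, Bhlhe40 and Irf4 are far above naive cells in the 3 CD44+ populations with their highest means in PSGL1lo cells, where none was called against CD62Llo PSGL1hi cells.

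Genes that interferon gamma can induce in responding cells were followed beside Ifng. A response to interferon gamma itself was not measured. Of 21 such genes, 6 fell and 1 rose in PSGL1lo against CD62Llo PSGL1hi cells, with a median of -0.10 over 33 probe sets. By probe set 8 were lower and 1 higher, beside 4.97% and 3.41% of all probe sets. Gbp7, a guanylate-binding protein, was 2.95-fold lower (log2 -1.56 ± 0.13 SE, limma adjusted p = 1.96e-06), the factor Irf8 2.17-fold lower (log2 -1.12 ± 0.14 SE, adjusted p = 8.23e-05; both probe sets) and the adhesion molecule Icam1 2.10-fold lower (log2 -1.07 ± 0.16 SE, adjusted p = 0.000459). Gbp6 fell by 0.67 ± 0.16 SE (adjusted p = 0.018; 1 of 2 probe sets) but kept its call in 7 of 11 alternative settings.

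Cxcl10, a chemokine that interferons induce, went the other way, 1.83-fold higher in the PSGL1lo cells (log2 0.87 ± 0.20 SE, limma adjusted p = 0.0149), and lost its call in 6 of 12 alternative settings. Against naive cells, where Ifng was lowest, the list was split: 5 of the 21 genes rose and 4 fell in CD62Llo PSGL1hi cells, and 3 rose and 8 fell in PSGL1lo cells. By probe set 7 of 33 were higher and 4 lower in CD62Llo PSGL1hi cells, beside 9.1% and 8.16% of all probe sets. In PSGL1lo cells 3 were higher and 12 lower, beside 9.53% and 10.6%. Gbp6, Igtp, Irgm1 and Irgm2 were higher in naive cells than in each of the 3 CD44+ populations.

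The cytokines outside the member list moved differently. Of 35 other interleukin and cytokine genes, 4 rose and 3 fell in PSGL1lo against CD62Llo PSGL1hi cells, with a median of 0.06 over 51 probe sets. By probe set 6 were higher and 3 lower, beside 3.41% and 4.97% of all probe sets. Il4, the T helper 2 and B cell help cytokine, was 10.1-fold higher (log2 3.33 ± 0.28 SE, limma adjusted p = 2.44e-06; log2 2.15 and adjusted p = 0.0041 after quantile normalization), while its T helper 2 partners Il5 and Il13 were flat. Il21, a B cell help cytokine, was 1.89-fold higher (log2 0.92 ± 0.21 SE, adjusted p = 0.0132), but after quantile normalization its adjusted p was 0.502. Penk, which encodes proenkephalin, fell by 1.92 ± 0.23 SE (adjusted p = 8.69e-05). Csf1, the macrophage growth factor M-CSF, rose by 1.12 ± 0.14 SE (adjusted p = 0.000126, and 0.239 after quantile normalization; 2 of 4 probe sets higher), unlike the flat Csf2.

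Early genes of T cell receptor signalling did not move as one group. Of 25 such genes 2 rose and 5 fell in PSGL1lo against CD62Llo PSGL1hi cells, with a median of -0.08 over 42 probe sets. By probe set 3 were higher and 8 lower, beside 3.41% and 4.97% of all probe sets. Ier3 fell by 3.17 ± 0.18 SE (limma adjusted p = 8.14e-08), Rgs1 fell by 2.36 ± 0.16 SE (adjusted p = 4.22e-07) and Nr4a2, an orphan nuclear receptor, fell by 2.23 ± 0.24 SE (adjusted p = 2.57e-05; 4 of 6 probe sets). Egr2, a factor of activated and anergic T cells, differed by 0.18 ± 0.14 SE (adjusted p = 0.631) and Rgs16 by 0.55 ± 0.21 SE (adjusted p = 0.147). Against naive cells 12 of the 25 rose and 1 fell in the PSGL1lo cells, and 13 rose and 1 fell in the CD62Llo PSGL1hi cells. By probe set 19 of 42 were higher and 1 lower in each. Beside them stood 9.53% higher and 10.6% lower of all probe sets in PSGL1lo cells. In CD62Llo PSGL1hi cells these shares were 9.1% and 8.16%.

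Il13, Il5, Csf2 and Il3 lie with Il4 in 1 gene cluster on chromosome 11, and this neighbourhood was examined after the values were seen. In RefSeq order the genes ran Septin8, Kif3a, Il4, Il13, Rad50, Il5, Irf1, Slc22a5, Slc22a21, Slc22a4, Pdlim4, P4ha2, Csf2, Il3 and Acsl6. In PSGL1lo against CD62Llo PSGL1hi cells the 3 genes called higher were Septin8, Kif3a and Il4, and Irf1 was called lower. Each gene stands by its probe set with the smallest F test p. Of all probe sets 3.41% were called higher and 4.97% lower here. Kif3a, a kinesin gene next to Il4, rose by 1.56 ± 0.13 SE (limma adjusted p = 2.39e-06; all 4 probe sets higher) and Septin8 rose by 0.95 ± 0.13 SE (adjusted p = 0.000189; 2 of 3 probe sets). Il13, on the other side of Il4, differed by 0.22 ± 0.12 SE (adjusted p = 0.371), Rad50 by -0.20 ± 0.14 SE (adjusted p = 0.525) and Il5 by -0.02 ± 0.13 SE (adjusted p = 0.964). Irf1 fell by 0.47 ± 0.13 SE (adjusted p = 0.0312) but lost its call in 5 of 12 alternative settings.

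**Figure D5:**
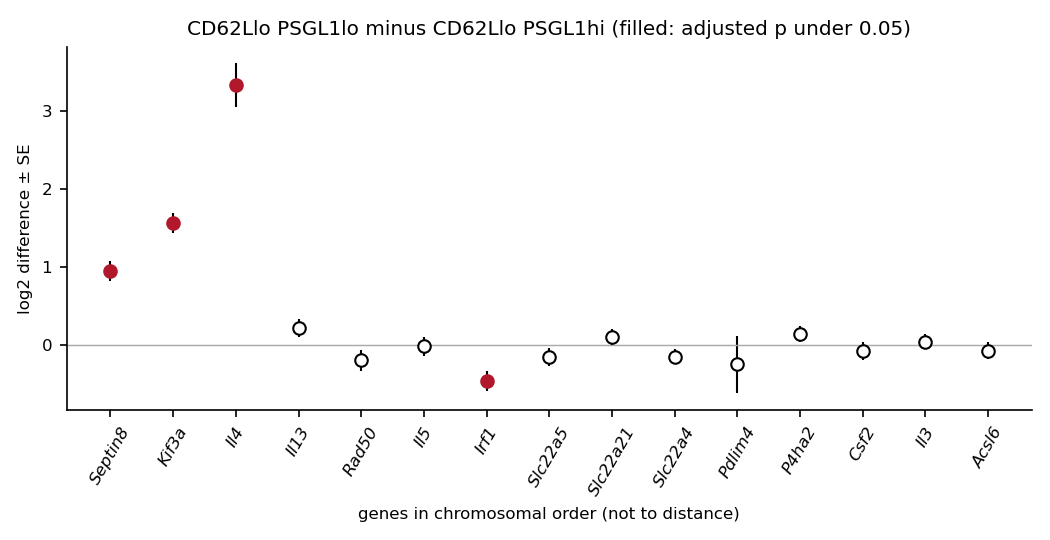
Points are log2 differences, with SE bars, between CD62Llo PSGL1lo and CD62Llo PSGL1hi cells for 15 genes in their order on chromosome 11; spacing is not to distance, and filled points have an adjusted p under 0.05. Septin8, Kif3a and Il4 lie above 0, Irf1 lies below 0 with a call that some settings lose, and Il13, Il5, Csf2 and Il3 lie near 0.

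The neighbours of the variable members were also compared. Beside Il10, its family members Il24 (-0.19 ± 0.11 SE, limma adjusted p = 0.41) and Il20 (0.04 ± 0.16 SE, adjusted p = 0.955) and the kinase gene Mapkapk2 (-0.28 ± 0.12 SE, adjusted p = 0.251) were not called while Il10 fell. Beside Ifng, Mdm1 and the kinase gene Dyrk2 were called lower (-0.95 in 1 of 2 probe sets and -0.72 in 3 of 4), where 4.97% of all probe sets were. Against naive cells, which had the lowest Ifng, Dyrk2 was lower in 4 (PSGL1lo), 2 (CD62Llo PSGL1hi) and 3 (CD62Lhi PSGL1hi) of 4 probe sets. Mdm1 was lower than in naive cells in 1 of 2 probe sets in PSGL1lo cells. It was higher in 1 in CD62Lhi PSGL1hi cells and not called in CD62Llo PSGL1hi cells. Cand1 and Grip1, also neighbours of Ifng, were not called in any of their 4 and 2 probe sets. Il2 lies next to Il21, and the other gene beside it, Adad1, differed by 0.0027 (adjusted p = 0.995).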

How the data were processed

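Sorted CD4 T cells were measured on 12 Affymetrix whole-genome mouse arrays. Signals came from MAS5, per the submitters' processing notes; its version is not given in the sources used here. The deposited values are linear ratios: from the values, each probe set was divided by its median over the 12 arrays (within 0.002 of 1 for 99.7% of probe sets). Array medians lay between 0.967 and 1.022, and no further scaling, pseudocount or filter was applied. Signal over background is unknown, and the number of arrays limits precision (median SE 0.120 on the log2 scale). Log2 ratios were fitted with limma 3.58.1 (lmFit and eBayes, no trend; R 4.3.3, tables read by version 1.17.8 of data.table) over all 4 groups, with 8 residual and 5.54 prior degrees of freedom. Tests were two-sided, with Benjamini-Hochberg adjustment over 45037 probe sets without the 64 array controls. The platform annotation gave 1 symbol to 34945 probe sets, several to 932, and did not list 9160. The fit was tested on simulated data.

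The members and gene lists were chosen with earlier results of these data known. All probe sets of the members were named. From each list up to 5 genes with the smallest F test p were named. Tbx21, Eomes, Prdm1, Maf, Gata3, Rora, Il4 and Il21 were always named, as were the 6 genes most like Ifng and Il10. Of the marker genes called beside a member, only some were named. Chromosomal neighbours, Foxp3, Ikzf2, Bcl6, Cebpa, Nfil3, Zeb2, Runx3, Id2, Ahr, Il17rb, S100a8, S100a9, Ifngr1, Cd8a and Ncr1 were named after their values were seen.

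Replicate numbers were checked for pairing: deviations of same-numbered arrays correlated between 0.138 and 0.451 in every pair of CD44+ populations, and between -0.0817 and 0.157 with naive arrays. The numbers were therefore taken to pair the CD44+ arrays, from the data and not from the labels. The main fit does not use this pairing. Unless a block is named, all SEs, intervals, p-values and called shares come from a fit without it. Alternatives were quantile normalization, centring, 1 probe set per gene, only the groups compared, the replicate block, robust eBayes and leaving out each array. The block covered the 9 CD44+ arrays for comparisons among them. For comparisons with naive cells and the F test it covered all 12 arrays, although naive arrays correlated only between -0.0817 and 0.157 with the others.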

Additional observations from a re-analysis of the deposited data

How the results depend on the processing

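The calls of Ifng and Il10 kept direction and side of the threshold in all alternatives, except Il10 in CD62Llo PSGL1lo against naive cells and Ifng between the PSGL1hi populations. After quantile normalization the PSGL1lo minus naive difference turned to -0.33 for Il10, -0.35 for Prdm1, -0.67 for Nkg7, -0.15 for Gzmk, -0.40 for Itgae and -0.59 for Rhoq, and CD62Llo PSGL1hi against CD62Lhi PSGL1hi had 893 calls, 1 of them a member (Ifng), in place of 556; the cause was not tested. Uncalled members changed sign 5 times under quantile normalization, 4 times after centring and 0 to 5 times when 1 array was left out. Such changes were not counted as reversals. Of 576 recomputed member values 567 kept their side of the threshold, 7 gained a call, 1 lost one and 1 reversed. These values include the 5 flat members, which the main fit did not call.

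With 1 probe set per gene, fewer features were tested, and 1951, 370, 2689, 4218, 3774 and 3770 were called in the 6 comparisons (PSGL1lo against CD62Llo PSGL1hi, CD62Llo PSGL1hi against CD62Lhi PSGL1hi, PSGL1lo against CD62Lhi PSGL1hi, then each against naive) and 5142 in the F test. The main counts were 3775, 556, 5242, 9044, 7772, 7770 and 10696. Fitting only the groups compared, with fewer arrays, called 368 between the PSGL1hi populations and 3274 for PSGL1lo against CD62Lhi PSGL1hi.

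The replicate block on the 9 CD44+ arrays changed no member call among those populations and raised the count between the PSGL1hi populations to 1089 (529 higher and 560 lower, against 178 and 378 without it). Without 1 array, that count ran from 364 (CD62Llo PSGL1hi replicate 1 left out; 370 without replicate 2) to 535. Signal over background is unknown, which limits what the flat members show.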
